A study of Mus musculus with 8 samples.

Results

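The 7 genes described here, Pou5f1, Sox2, Sall4, Utf1, Lin28a, Zfp42 and Dppa5a, are core pluripotency genes of the mouse embryonic stem cell. They were chosen by name, as all probe sets annotated to these single symbols, which gave 9 probe sets for 7 of the 12393 genes with a probe set of their own. Lin28a and Sall4 had 2 probe sets each and the other 5 genes had 1 each. RNA was measured on Affymetrix Mouse 430A 2.0 microarrays in J1 cells, an embryonic stem cell line grown on gelatin in medium with serum and leukemia inhibitory factor (LIF). There were 4 groups of 2 arrays: cells with a control hairpin (shControl), with the first (shRNA1) or the other (shRNA2) of 2 hairpins against Fbxl19, and cells at day 4 of differentiation. The labels give no vector, clone or time after hairpin delivery, nor the method of differentiation or any hairpin in the day 4 cells, and the growth text with LIF is the same for every sample. The series asked how expression changes when Fbxl19, an F-box protein with a CpG-binding CXXC zinc finger, is reduced. Fbxl19 itself had 0 probe sets, so its level, and with it the hairpin labels, was not checked here.

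Pluripotent cells are held undifferentiated by a network around the transcription factors OCT4 (Pou5f1), a POU protein, and SOX2, an HMG-box protein, which bind DNA together. SALL4 is a zinc finger factor of the same network, and UTF1 is a chromatin-bound protein of pluripotent cells. LIN28A binds RNA and blocks maturation of the let-7 microRNAs, ZFP42 (REX1) is a zinc finger protein related to YY1 and a widely used marker of the naive state, and DPPA5A (ESG1) is a KH-domain RNA-binding protein. Cells that leave the naive for the formative and primed states are known to keep OCT4 and SOX2 while they lose Zfp42 and most naive factors.

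Promoter windows from RefSeq (GRCm38.p6, 250 bases before to 50 after a gene's start) were found for 5 of the 7 genes; Sall4 and Dppa5a had none in the table used. Shown here are Zfp42, which fell on day 4, Lin28a, which rose, and Pou5f1, for which no change was called, as read 5′ to 3′ on the gene's strand. Capitals mark each CG, the dinucleotide that CXXC zinc fingers bind when unmethylated, and the octamer ATGCAAAT, the site read by POU factors, on either strand. The windows are chr8:43306960-43307259 (minus strand) for Zfp42, chr4:134018767-134019066 (minus strand) for Lin28a and chr17:35505782-35506081 (plus strand) for Pou5f1.
Zfp42: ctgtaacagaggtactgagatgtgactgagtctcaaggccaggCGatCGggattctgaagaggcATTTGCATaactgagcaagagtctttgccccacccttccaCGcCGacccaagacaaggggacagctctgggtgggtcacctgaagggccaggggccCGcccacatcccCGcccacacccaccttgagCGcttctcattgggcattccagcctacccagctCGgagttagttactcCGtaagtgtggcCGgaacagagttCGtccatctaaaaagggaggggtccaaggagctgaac
Lin28a: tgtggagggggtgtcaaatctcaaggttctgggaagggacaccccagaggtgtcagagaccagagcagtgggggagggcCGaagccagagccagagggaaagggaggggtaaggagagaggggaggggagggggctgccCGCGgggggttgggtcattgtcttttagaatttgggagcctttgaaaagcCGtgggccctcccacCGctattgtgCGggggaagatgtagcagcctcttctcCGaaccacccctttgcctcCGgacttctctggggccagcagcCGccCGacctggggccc
Pou5f1: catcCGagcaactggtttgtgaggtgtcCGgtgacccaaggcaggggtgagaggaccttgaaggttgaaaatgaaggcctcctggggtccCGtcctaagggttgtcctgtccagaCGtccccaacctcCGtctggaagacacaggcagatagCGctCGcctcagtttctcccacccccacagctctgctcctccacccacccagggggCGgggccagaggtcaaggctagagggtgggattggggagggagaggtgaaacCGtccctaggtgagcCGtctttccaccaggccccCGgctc
The Zfp42 window held the octamer, read as ATTTGCAT on the gene's strand, with its first base 186 bases before the start. The windows of Lin28a, Sox2, Utf1 and Pou5f1 (a second Pou5f1 window included) held no match, and 1.74% of all 32851 windows held 1 or more. The SOX letters ATTGTT, searched on both strands, occurred in the second Pou5f1 window alone among the 6 windows of these genes, and in 10.7% of all windows. Over all windows the median number of CG was 7 (quartiles 3 and 20). CG occurred 11 times in the Zfp42 window, 10 times in that of Lin28a and 11 times in the Pou5f1 window shown. It occurred 6 times in the second Pou5f1 window, 17 times in that of Utf1 and 27 times in that of Sox2. These are matches of letters, and no binding was measured.

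Agreement between partner arrays was weaker for shControl and day 4 than for the hairpins. The SD across genes of the difference between partners was 0.31 for shControl, 0.20 for shRNA1, 0.22 for shRNA2 and 0.41 for day 4, on the log2 scale. Replicate 2 of shControl stood apart in its distribution, with a median of 5.81 where the other 7 arrays had 5.70 to 5.76, so results that rest on it are given without it as well. The actin controls, whose 3' minus 5' signal is a sign of RNA quality, gave 0.54 and 0.60 for shControl and 0.65 to 0.76 for the other 6 arrays. The Gapdh controls did not separate these arrays, with 0.17 and 0.26 for shControl and 0.18 to 0.27 for the other 6. Values are log2 expression per probe set, and in bulk RNA fewer expressing cells and less RNA per cell cannot be told apart. Nothing in the labels says that replicates were separate cultures, and a p-value here reflects array-to-array spread that may be technical.

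On day 4, Zfp42 and Dppa5a fell, Lin28a rose, and no change was called for Pou5f1, Sox2, Sall4 and Utf1. Calls were made in a limma model over all genes at a Benjamini-Hochberg adjusted p under 0.05, so 3 of 7 genes were called where 16.4% of all genes were. Of all genes, 7.67% were called higher and 8.73% lower. The sizes differed widely: Zfp42 fell 7.14-fold, Dppa5a 1.45-fold, and Lin28a rose 1.80-fold. The group of 7 thus does not as a whole keep its level through day 4, and Zfp42 goes against that description most. The median change of the 7 genes was -0.25 on the log2 scale, beside -0.00058 over all genes. These lists and genes were chosen with results of these data known, so their counts are descriptions.

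**Figure D1:**
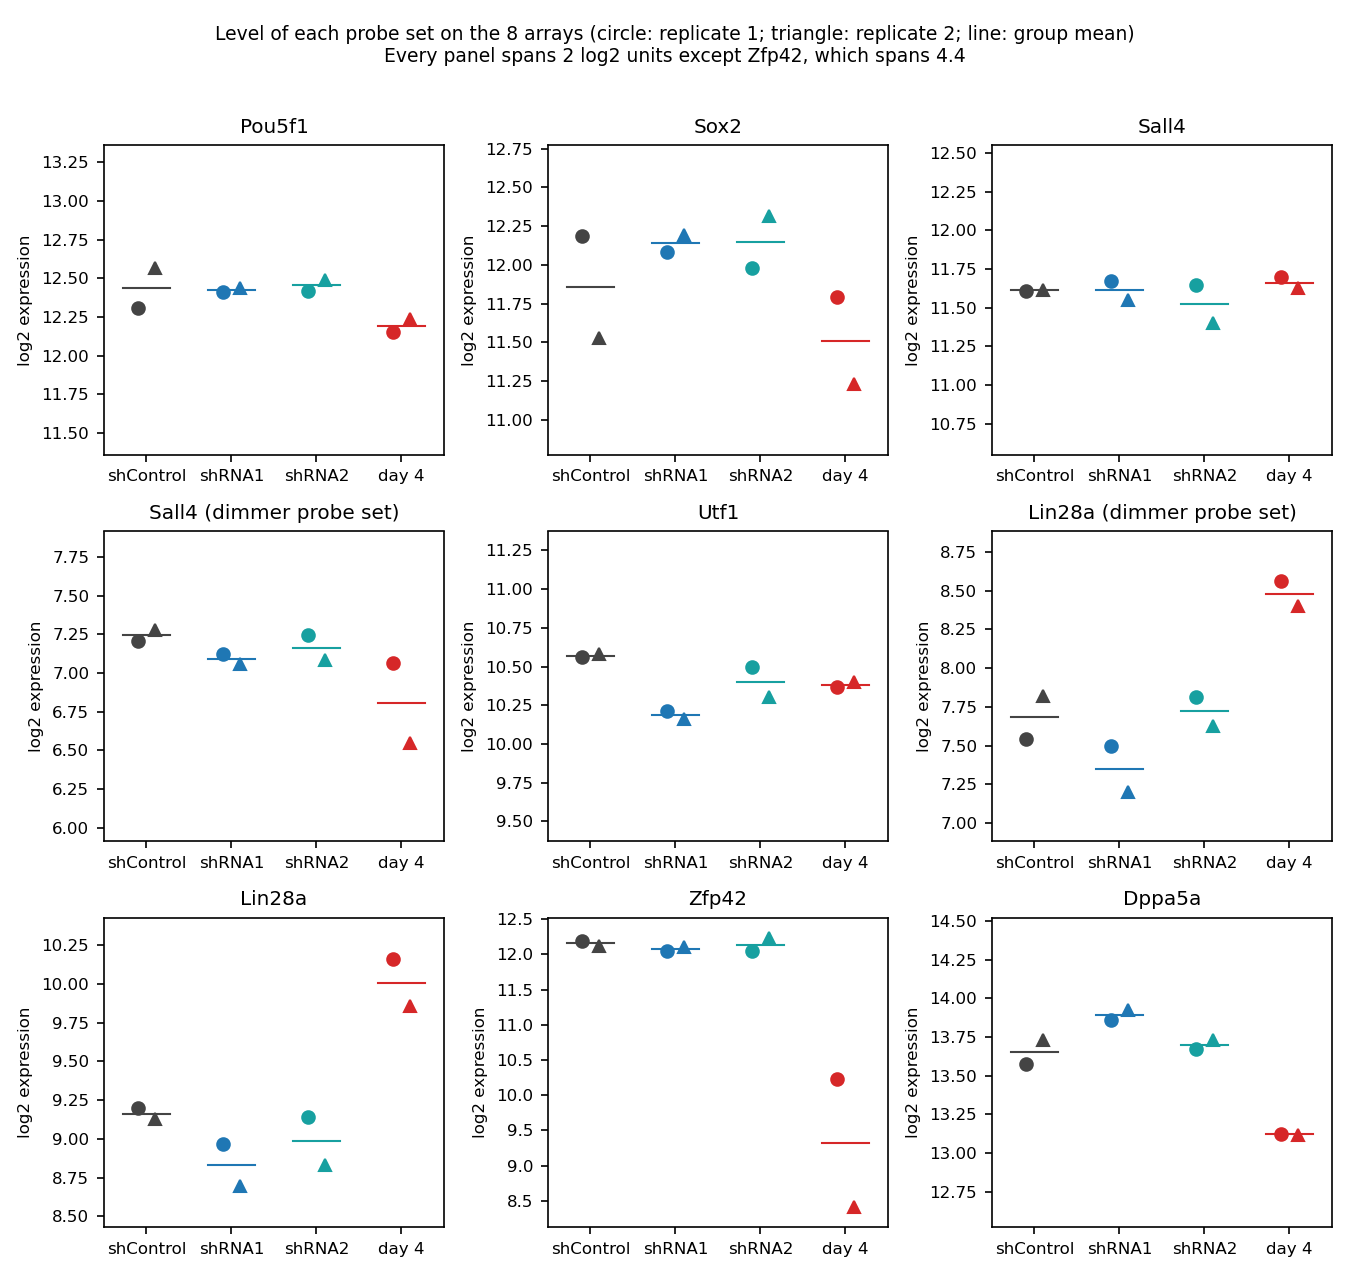
Log2 expression (vertical axis) of the 9 probe sets in the 4 groups, with circles for replicate 1, triangles for replicate 2 and lines for group means; each panel spans 2 log2 units except Zfp42. Zfp42 lay between 12.05 and 12.23 on the 6 undifferentiated arrays and at 10.23 and 8.41 on day 4, while both probe sets of Lin28a were highest on the day 4 arrays.

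Zfp42 had log2 levels of 12.20 and 12.13 in shControl, 12.05 and 12.11 with shRNA1, 12.05 and 12.23 with shRNA2, and 10.23 and 8.41 on day 4. The 6 undifferentiated arrays lay within 0.18 of each other, both day 4 arrays lay far below them, and day 4 replicate 2 minus replicate 1 was -1.82. Zfp42 fell on day 4 by 2.84 ± 0.45 on the log2 scale (SE, 2 against 2 arrays; limma adjusted p = 0.00296; 95% interval -3.86 to -1.81). Only 0.662% of all genes had a larger absolute change. Without shControl replicate 2 the change was -2.87 (adjusted p = 0.0454). Zfp42 was the only one of the 3 calls that held in all alternatives tried, in which its change lay between -3.75 and -1.93.

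Lin28a had 9.20 and 9.13 in shControl, 8.97 and 8.69 with shRNA1, 9.14 and 8.83 with shRNA2, and 10.16 and 9.86 on day 4. Both day 4 arrays lay above all 6 others. Lin28a rose by 0.85 ± 0.17 (limma adjusted p = 0.0103; 95% interval 0.46 to 1.24). Its dimmer probe set had 7.55 and 7.82 in shControl, 7.50 and 7.20 with shRNA1, 7.81 and 7.63 with shRNA2, and 8.56 and 8.40 on day 4. In the fit of every probe set it rose by 0.80 ± 0.16 (limma adjusted p = 0.0128), so the 2 probe sets gave the same direction and a similar size. Without shControl replicate 2 Lin28a had 0.81 and was not called (adjusted p = 0.0746).

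Dppa5a had 13.57 and 13.73 in shControl, 13.86 and 13.92 with shRNA1, 13.67 and 13.73 with shRNA2, and 13.12 and 13.12 on day 4. Both day 4 arrays lay below all 6 others, and their SD was 0.0018. Dppa5a fell by 0.53 ± 0.13 (limma adjusted p = 0.0219; 95% interval -0.82 to -0.24). Its levels lay close to the highest values of these arrays, 14.18 to 14.26, where an array can understate a difference. Without shControl replicate 2 it had -0.45 and was not called (adjusted p = 0.0848), nor was it with shControl and day 4 alone in the fit (adjusted p = 0.132) or without either shRNA1 array (adjusted p = 0.0542). RefSeq lists 2 pseudogenes named for Dppa5, 5 for Pou5f1 and 1 for Zfp42, and whether the probes also read them is not given.

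Pou5f1 had 12.31 and 12.57 in shControl, 12.41 and 12.44 with shRNA1, 12.42 and 12.49 with shRNA2, and 12.15 and 12.23 on day 4. Both day 4 arrays lay below all the others, by a small margin. For 50.4% of all genes the day 4 and shControl arrays did not overlap. The change was -0.25 ± 0.14 (limma adjusted p = 0.281), and its 95% interval of -0.56 to 0.07 does not reach a 2-fold fall. Of all genes, 46.2% had a larger absolute change. Without shControl replicate 2 the change was -0.12 (adjusted p = 0.655).

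Sox2 had 12.19 and 11.52 in shControl, 12.09 and 12.19 with shRNA1, 11.98 and 12.31 with shRNA2, and 11.79 and 11.23 on day 4. Its control arrays (SD 0.47) overlapped the day 4 arrays. The change on day 4 was -0.34 ± 0.25 (limma adjusted p = 0.419; 95% interval -0.92 to 0.23). It was -0.68 without shControl replicate 2 (adjusted p = 0.180) and -0.01 without shControl replicate 1 (adjusted p = 0.977). It was -0.63 without day 4 replicate 1 (adjusted p = 0.157) and -0.06 without day 4 replicate 2 (adjusted p = 0.903). The size of the Sox2 change thus moved with single arrays of both groups, and it passed the threshold in none of these fits.

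Sall4 had 11.61 and 11.61 in shControl, 11.67 and 11.55 with shRNA1, 11.65 and 11.40 with shRNA2, and 11.70 and 11.63 on day 4. Its change was 0.05 ± 0.14 (limma adjusted p = 0.861; 95% interval -0.26 to 0.36). The dimmer probe set of Sall4 had 7.21 and 7.28 in shControl, 7.12 and 7.06 with shRNA1, 7.24 and 7.08 with shRNA2, and 7.07 and 6.55 on day 4. It gave -0.43 ± 0.18 (limma adjusted p = 0.154), so the 2 probe sets differed in sign, and neither passed. Their mean gave -0.19.

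Utf1 had 10.56 and 10.58 in shControl, 10.22 and 10.16 with shRNA1, 10.50 and 10.30 with shRNA2, and 10.37 and 10.40 on day 4. The day 4 arrays lay below shControl and inside the range of the hairpin arrays. The change against shControl was -0.19 ± 0.13 (limma adjusted p = 0.392; 95% interval -0.48 to 0.11), and against the mean of both hairpins it was 0.09. For 6 of the 7 genes, all but Sox2, the day 4 and shControl arrays did not overlap, and the same held for 50.4% of all genes.

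The day 4 arrays can also be set against the hairpin arrays, which share no array with shControl. Against the mean of both hairpins, Zfp42 fell by 2.78 ± 0.39 (SE, 2 against 4 arrays; limma adjusted p = 0.00108), Dppa5a fell by 0.67 ± 0.11 (adjusted p = 0.00255) and Lin28a rose by 1.10 ± 0.15 (adjusted p = 0.000878). The same 3 genes were thus called as against shControl. Both comparisons use the same 2 day 4 arrays and the same fitted spread, so they are not independent. Sox2 had -0.63 ± 0.22 (adjusted p = 0.0741) and Pou5f1 -0.25 ± 0.12 (adjusted p = 0.200). Sall4 and Utf1 had 0.09 each, and none of these 4 passed.

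**Figure D2:**
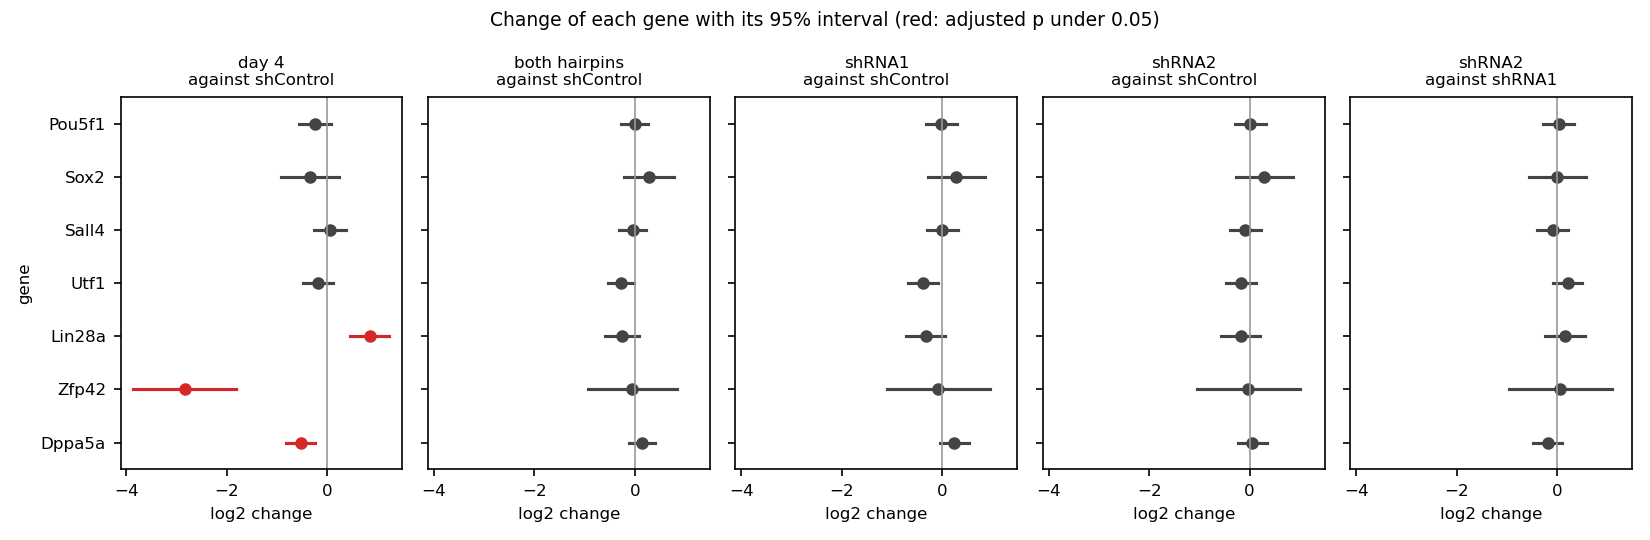
Log2 change of the 7 genes in 5 comparisons (horizontal axis), with the 95% interval of the limma model as a line and genes with an adjusted p under 0.05 in red. Zfp42, Lin28a and Dppa5a are red on day 4, and none is red in the 4 comparisons of the hairpins.

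The day 4 arrays differed in how far Zfp42 had moved, -1.93 on replicate 1 and -3.75 on replicate 2 relative to the shControl mean. Of all genes, 0.379% differed more between these arrays in absolute size. Regulators of naive pluripotency differed in the same direction: their median was -1.73 on replicate 1 and -3.74 on replicate 2, and 9 of 11 measured genes were lower on replicate 2. All 10 formative and primed genes were higher on replicate 2, with medians of 1.87 and 2.65. The share of all genes higher or lower on replicate 2 was not counted, so these counts are descriptions. The other core genes differed less between these arrays, by -0.56 for Sox2, -0.30 for Lin28a, 0.083 for Pou5f1, -0.069 for Sall4, 0.033 for Utf1 and -0.0025 for Dppa5a. For Sox2, 12.7% of all genes differed more. The labels give no reason for a difference between the day 4 replicates.

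**Figure D3:**
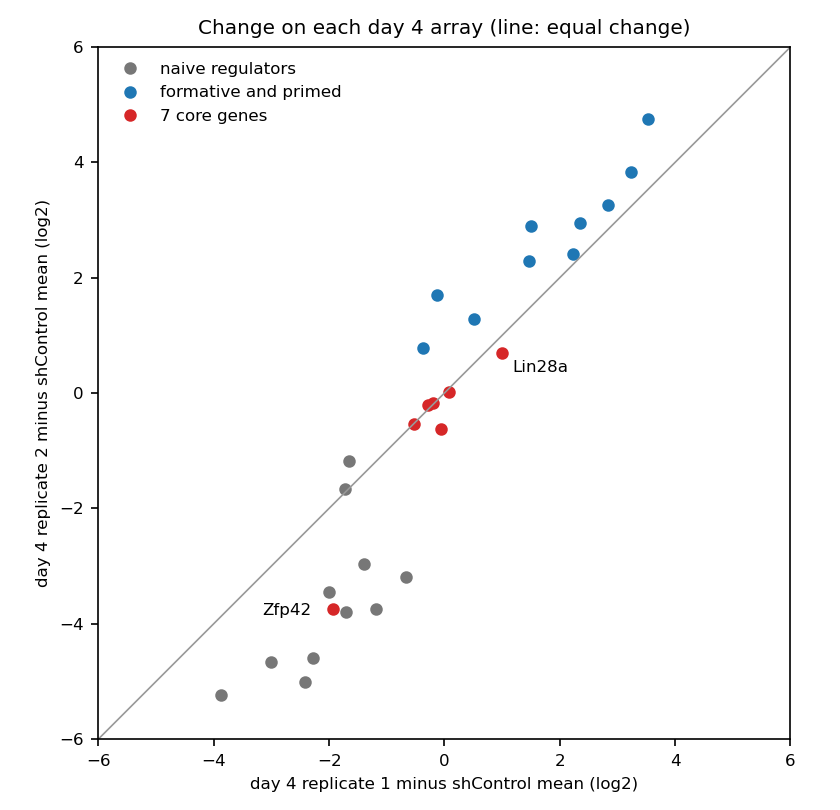
Change from the shControl mean (log2) on day 4 replicate 1 (horizontal axis) and replicate 2 (vertical axis) for the 7 core genes, 11 naive regulators and 10 formative and primed genes, with a line of equal change. Zfp42 lies at -1.93 and -3.75 among the naive regulators, while the other 6 core genes lie between -0.63 and 1.00. Of these 6, Sox2 lies farthest from the line, at -0.06 and -0.63.

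Naive regulators changed by more than most of the 7 core genes. Of 11 measured naive regulators, 10 fell and 0 rose on day 4, with a median of -2.73. Klf4 changed by -4.55 ± 0.37, Tcl1, a kinase coactivator, by -3.83 ± 0.43, the orphan receptor gene Esrrb by -3.71 ± 0.63 and Tfcp2l1 by -3.43 ± 0.57 (limma adjusted p at most 0.00413). With the mean of its probe sets Tfcp2l1 had -1.16 (adjusted p = 0.00505), and without day 4 replicate 2 it had -2.28 and Esrrb -2.42. Klf5 had -1.93 and did not pass. Zfp42, at -2.84, lay inside the range of these genes, -4.55 to -1.41, and the other 6 core genes lay outside it. Without shControl replicate 2 the count that fell was 4, and Esrrb and Tfcp2l1 were not called (adjusted p = 0.0635 and 0.0587).

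Of 12 measured genes known as OCT4 and SOX2 targets or enriched in stem cells, 7 fell and 0 rose (median -0.66). Fbxo15, an F-box gene, changed by -3.31 ± 0.45, the uridine phosphorylase gene Upp1 by -1.93 ± 0.29, Nanog, a homeobox factor of the naive network, by -1.70 ± 0.13 and Mybl2 by -1.42 ± 0.33 (limma adjusted p at most 0.0200). Mybl2 was not called without either shControl array (adjusted p = 0.0774 and 0.150), and had -0.78 without day 4 replicate 2. Nanog is also among the naive regulators and Mybl2 among the network factors. The count that fell was 3 without either shControl array and 4 without either shRNA1 array or when arrays were centred on their medians. Of 27 network factors and chromatin cofactors, 8 fell and 1 rose (median -0.17). Stat3, which carries the LIF signal, changed by -2.25 ± 0.15, the repressor gene Rest by -1.18 ± 0.16 and Wdr5, a subunit of histone H3K4 methyltransferases, by -0.86 ± 0.14 (limma adjusted p at most 0.00331), and 4 fell without shControl replicate 2.

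Of 17 listed genes of the Lin28 and let-7 pathway, 10 were measured, and 16.4% of all genes were called on day 4. A count of 0 in so short a list does not set the pathway apart from that share. Of 10 measured Lin28 and let-7 pathway genes, limma called 0 on day 4 (median -0.0021; largest changes Dicer1 -0.43 and Ago2 -0.41, adjusted p = 0.155 and 0.132). Without day 4 replicate 1 both passed, with -0.68 and -0.62. At the mean of its probe sets Dicer1 had 0.14. Lin28b was not measured here, and mature let-7 RNA is not read by these arrays.

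Among 31 measured relatives of the core genes by family or by name, 4 rose and 4 fell (median -0.032). Dppa2, Dppa3 and Dppa4 share only the name of Dppa5a. Among the other 28, 4 rose and 2 fell (Sall1 and Sox15). The POU gene Pou3f1 (OCT6) rose by 3.53 ± 0.19, from a mean of 6.46 to 9.99, while Pou5f1, of the same family, had -0.25. Sox11 rose by 2.58 ± 0.13, while Sox2 had -0.34. Sall2 had a change of 4.14 ± 0.34 from a shControl mean of 3.47, under the lower quartile of each array (3.79 to 3.90), where no background is given and sizes are uncertain; Sall4 had 0.05. Dppa3 (STELLA) fell by 1.41 ± 0.27 (limma adjusted p at most 0.00796 for these 4 genes), and without shControl replicate 2 it was not called. Without that array, 1 of the 31 fell.

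Of 10 formative and primed genes, 7 rose and 0 fell on day 4 (median 2.26). Beside Sall2 and Pou3f1, the tight junction gene Cldn6 rose by 3.05 ± 0.19 and the zinc finger gene Zic2 by 2.65 ± 0.21 (limma adjusted p at most 7.40e-05). Of 11 primitive streak and endoderm markers, 3 were called higher, the T-box gene Eomes by 2.70 ± 0.43, Evx1 by 1.48 ± 0.20 and Wnt3 by 0.91 ± 0.23, the last with both means, 2.67 and 3.58, under the lower quartiles. Wnt3 was not called without either shControl array (adjusted p = 0.0990 and 0.149) and had 0.50 without day 4 replicate 2 and 1.32 without replicate 1. The summed level of these 11 markers, as log2, was 7.87 to 8.06 on the 6 undifferentiated arrays and 8.84 and 9.89 on day 4. Sums were taken on unlogged values, so bright genes weigh most. Eomes alone had 5.55 and 6.14 in shControl and 7.87 and 9.21 on day 4. The part of these markers in the changes of the core genes was not tested.

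Counts for markers of other lineages stand beside the 16.4% of all genes called on day 4. Of 10 early neural markers 1 fell (Tubb3, -1.13 ± 0.18) and 0 rose. Against shRNA1 alone Tubb3 had -0.30 and was not called (adjusted p = 0.353), and against the mean of both hairpins it had -0.52 (adjusted p = 0.0466). Of 10 primitive endoderm markers 1 fell (the laminin gene Lama1, -2.74 ± 0.17) and 0 rose. Of 9 trophoblast markers Cdx2 rose by 0.59 ± 0.17 (limma adjusted p = 0.0462) and Tfap2c fell by 1.75 ± 0.36, and of 10 fibroblast markers Twist1 rose by 0.96 ± 0.19 from a mean of 3.57, also under the lower quartiles. The summed neural level was 8.70 and 8.72 on day 4 and 8.60 to 8.88 on the undifferentiated arrays. The fibroblast level was 7.59 and 7.60 against 7.47 to 7.74, and the trophoblast level 8.41 and 7.99 against 8.35 to 9.12. The primitive endoderm level was 7.66 and 7.73 against 8.36 to 8.63. In such sums the brightest genes weigh most. Lama1 had 7.36 and 7.78 in shControl and 4.91 and 4.74 on day 4, and Tfap2c had 7.88 and 7.46 against 6.59 and 5.26. Of the 9 trophoblast markers, 8 lay above 0 and 1 below, with a median of 0.42. Gata3 had the largest change among them, 1.95, and was not called. It had 2.70 and 2.96 in shControl, under the lower quartiles, and 5.95 and 3.61 on day 4. Tfap2c was not called without either shControl array and had -1.08 without day 4 replicate 2. Cdx2 was not called in most alternatives, among them the removal of any 1 array other than day 4 replicate 1.

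**Figure D4:**
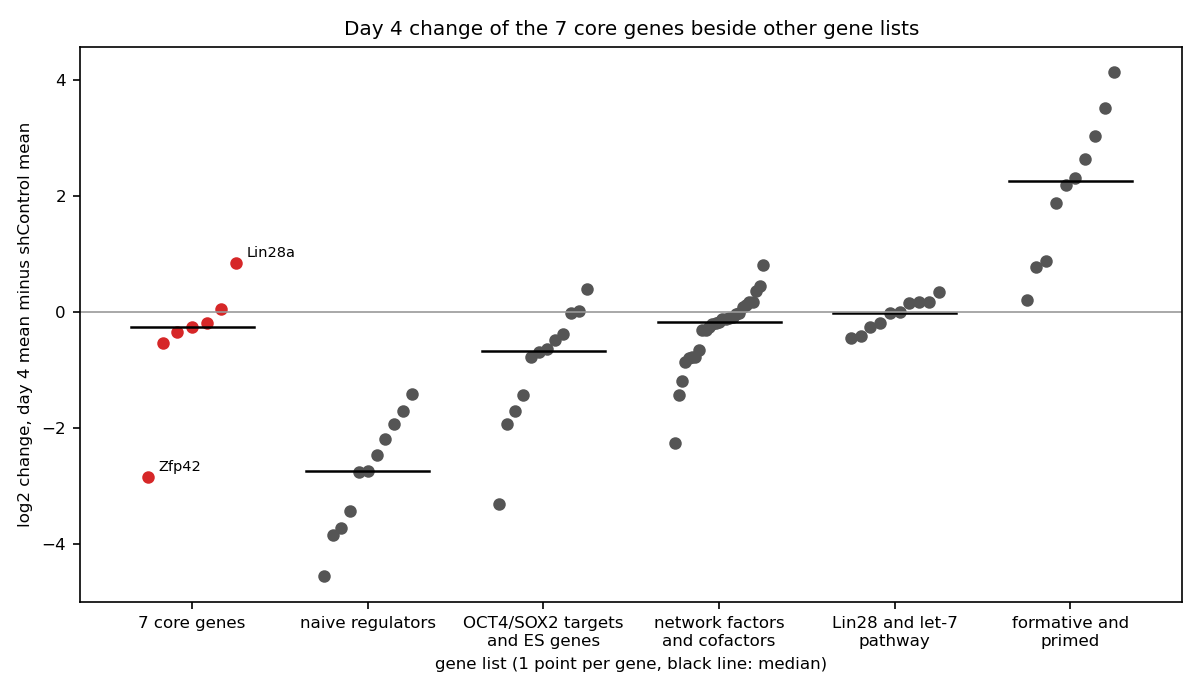
Log2 change from shControl to day 4 (vertical axis) of each gene in 6 lists, with the list median as a black line. The 7 core genes (red) have a median of -0.25, the naive regulators -2.73 and the formative and primed genes 2.26, and Zfp42 lies at the level of the naive regulators.

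Zfp42 and Lin28a were the core genes whose group means spanned at least 1 on the log2 scale (2.84 and 1.18). Over the 8 arrays, the genes most alike to Zfp42 were Esrrb (Pearson's r = 0.997), Arid5b (r = 0.996) and Trim6 (r = 0.995), and the most opposite was the protocadherin gene Pcdh18 (r = -0.999). Esrrb had 7.35 and 4.76 on the day 4 arrays and 9.62 to 9.87 on the others. Alike in shape, Trim6 changed by only -0.67. Most alike to Lin28a were the retinol dehydrogenase gene Rdh10 (r = 0.987), Id2, an inhibitor of bHLH factors (r = 0.986), and Rnf149 (r = 0.986), and the most opposite was Fam210b (r = -0.991). The 8 points of each correlation share the array groups and the step to day 4, and such r are the extremes of 12392 genes compared.

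With the Fbxl19 hairpins, no change was called for any of the 7 genes. This held for the mean of both hairpins against shControl (0.0726% of all genes called), for shRNA1 (0.242%), for shRNA2 (0%) and for shRNA2 against shRNA1 (0.105%). At an unadjusted p under 0.05, limma had 1 of the 7 genes (Utf1) for the mean of both hairpins and for shRNA1, and 0 for shRNA2 and between the hairpins, where all genes had 8.42%, 9.82%, 5.1% and 5.15%. Arrays did not overlap for 4 of the 7 genes with shRNA1 (43.4% of all genes), for 1 with shRNA2 (33.1%) and for 2 between the hairpins (43.6%). The smallest adjusted p of the 7 was 0.561 for the mean of both hairpins, 0.402 for shRNA1, 0.989 for shRNA2 and 0.9995 between the hairpins. Both hairpin comparisons share the shControl arrays.

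Utf1 came closest. All 4 hairpin arrays, 10.16 to 10.50, lay below both shControl arrays, 10.56 and 10.58, which held for 1 of the 7 genes and, in either direction, for 20.1% of all genes. Its change was -0.38 ± 0.13 with shRNA1 (SE, 2 against 2 arrays; limma adjusted p = 0.402), -0.17 ± 0.13 with shRNA2 (adjusted p = 0.989) and -0.27 ± 0.11 for their mean (adjusted p = 0.561). The hairpins differed by 0.21 ± 0.13, with a 95% interval of -0.09 to 0.51. The actin 3'-to-5' difference also separated the hairpin arrays, 0.70 to 0.76, from shControl, while that of Gapdh did not. The part of RNA quality in the Utf1 values was not tested.

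Pou5f1 had -0.02 ± 0.14 with shRNA1 and 0.02 ± 0.14 with shRNA2 (limma adjusted p = 0.982 and 0.998), with 95% intervals of -0.33 to 0.30 and -0.30 to 0.33. Sall4 had 0.001 and -0.09 with the same hairpins, and their intervals lay between -0.40 and 0.31. Zfp42 had -0.08 and -0.02, with intervals of -1.11 to 0.94 and -1.05 to 1.00 in the model that shares its spread with day 4. With shControl and the hairpins alone in the fit, the SE of its mean change, -0.05, was 0.11 in place of 0.39. Sox2 had 0.28 and 0.29 (adjusted p = 0.751 and 0.989), and -0.05 and -0.04 without shControl replicate 2.

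Lin28a had -0.33 ± 0.17 with shRNA1 and -0.18 ± 0.17 with shRNA2 (limma adjusted p = 0.582 and 0.989), opposite in sign to day 4; its dimmer probe set gave -0.33 and 0.04. Dppa5a had 0.24 ± 0.13 and 0.05 ± 0.13 (adjusted p = 0.599 and 0.990). Apart from Zfp42, the 95% intervals for the mean of both hairpins lay between -0.59 and 0.78, a 1.51-fold fall and a 1.72-fold rise, so a 2-fold change lay outside each of them. A p above the threshold does not show that these genes were the same in all groups. Of 11 naive regulators and of 12 targets, limma called 0 for the mean of both hairpins, the largest changes being those of Dppa3 (0.38, adjusted p = 0.694) and Tbx3 (0.28) in the first list and of Upp1 (0.67, adjusted p = 0.542) and Dppa2 (0.31) in the other. The Lin28 and let-7 list also had 0, with a median of -0.30, Igf2bp3 at -0.41 (adjusted p = 0.408) and Dicer1 at -0.38. Among the formative and primed genes 1 was called, Otx2 with shRNA1 (1.38 ± 0.18, limma adjusted p = 0.0218). Its levels were 8.17 and 8.26 in shControl and 9.38 and 9.81 with shRNA1. Fits without single arrays are not given for this call. Otx2 was not called with shRNA2 (0.56, limma adjusted p = 0.818) or for the mean of both hairpins (0.97, adjusted p = 0.0917).

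In order of group means, day 4 was lowest for Zfp42, Dppa5a, Pou5f1 and Sox2 and highest for Lin28a and Sall4. For Utf1 it lay between shRNA2 and shRNA1. The order for Sall4 is that of its brighter probe set, and in the dimmer one day 4 was the lowest group. A step between neighbouring groups passed the threshold only for Zfp42, Dppa5a and Lin28a, in each between day 4 and its neighbour. For Zfp42 the neighbour was shRNA1, from which day 4 differed by -2.75 (limma adjusted p = 0.00312), for Dppa5a it was shControl and for Lin28a it was shControl, as given above. In the other 4 genes no step of day 4 passed. For Pou5f1, day 4 was -0.23 ± 0.14 from shRNA1 (adjusted p = 0.336), and for Sall4 it was 0.05 ± 0.14 from shRNA1 (adjusted p = 0.884). For Sox2 the neighbour was shControl, with overlapping arrays. For Utf1, day 4 was -0.02 ± 0.13 from shRNA2 (adjusted p = 0.962) and 0.19 ± 0.13 from shRNA1 (adjusted p = 0.407).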

How the data were processed

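The values are log2 expression by RMA, as the authors deposited them for each probe set; the submitters' processing notes name RMA, and its version or whether the 8 arrays were handled jointly is not given in the sources used here. Sample titles gave the groups and replicate numbers. A description label names other Fbxl genes on 3 of the 4 knockdown arrays, and titles and source names were followed. Of 22690 probe sets, 64 were array controls, 20380 others carried a single annotated symbol, 691 several and 1555 none; 20351 were matched by gene ID to RefSeq (GRCm38.p6) for current symbols. Per gene, the probe set with the highest mean was kept, giving 12393 genes.

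A mean for each group was fitted with limma 3.58.1 in R 4.3.3 (lmFit, eBayes; 4 residual degrees of freedom), with Benjamini-Hochberg adjustment over all genes, and tested on simulated data. Errors are moderated SE. No coordinates are given for the array, whose build is not named; those of promoter windows are RefSeq's. All members passed, since no filter on low values was applied. Of other lists, up to 4 called genes with the largest change are named, or 2 where none was called; for members spanning at least 1, the 3 most alike genes and the most opposite one. The members and lists were chosen with earlier results of these data known. Alternatives were other probe set summaries, filters, spreads, arrays, scalings, a replicate block and other baselines. Arrays have no read depth; their number limits the precision.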

Additional observations from a re-analysis of the deposited data

How the results depend on the processing

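Of the 7 core genes, 3 were called on day 4 and 0 in each hairpin comparison. The day 4 count was 1 with array weights (Zfp42), 2 with the compared groups alone, and 1 to 3 when each array was left out in turn, the 1 being without shControl replicate 2; it was 3 in the other alternatives, and the hairpin counts stayed at 0. With the replicate number as a block it was also 3, the Lin28a change being 0.85 (limma adjusted p = 0.00323). The replicate differences correlated across genes by 0.23 to 0.50 between the 3 undifferentiated groups and by -0.078 to 0.070 between these and day 4. The numbers were therefore not taken to pair all groups. The block gives all 4 groups the same replicate difference, and a block for the undifferentiated groups alone was not fitted. The block over all groups changed no call of the 7 genes. Over all genes, the day 4 count was 2033, 3210 with every probe set tested, 1145 with the compared groups alone, 1191 with array weights and 1102 without shControl replicate 2. Over all alternatives the hairpin counts ranged from 0 to 54 around 9 (both hairpins), 2 to 113 around 30 (shRNA1), 0 to 40 around 0 (shRNA2) and 2 to 176 around 13 (between hairpins), the highest with the compared groups alone or, between hairpins, array weights; the block gave 22, 49, 0 and 8. A fit with 1 array in a group assumes that it varies like the others.

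Changes near 0 turned sign, as did that of Dicer1, which was -0.43 on day 4 in the main fit. On day 4, Sall4 had -0.19 and Dicer1 0.14 when probe sets were averaged, and Utf1 had 0.088 against both hairpins and, in a comparison added after seeing the data, 0.19 against shRNA1 alone. With shRNA1, Sall4 had -0.076 when averaged so, and Pou5f1 0.0066 after repeated quantile normalization and 0.0086 after centring. With shRNA2, Zfp42 had 0.0049 after centring, and between the hairpins Sox2 had -0.034 after repeated quantile normalization.

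Leaving out each array in turn, the range crossed 0 for Pou5f1 from -0.13 to 0.13, Sox2 from -0.042 to 0.62 and Sall4 from -0.10 to 0.018 (both hairpins against shControl); Pou5f1 from -0.14 to 0.11, Sox2 from -0.046 to 0.61 and Sall4 from -0.061 to 0.063 (shRNA1 against shControl); Pou5f1 from -0.11 to 0.15, Zfp42 from -0.11 to 0.067, Dppa5a from -0.028 to 0.13, Sox2 from -0.038 to 0.62 and Sall4 from -0.21 to 0.034 (shRNA2 against shControl); Sox2 from -0.16 to 0.18, Lin28a from -0.00017 to 0.31, Pou5f1 from -0.0020 to 0.066, Sall4 from -0.21 to 0.033 and Zfp42 from -0.031 to 0.15 (shRNA2 against shRNA1).
The cause of these differences was not tested.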
